A study of Homo sapiens with 4 samples.

Results

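Very short introns were taken here as the listed introns of 11 to 150 bp that lie in genes with at least 2 listed introns. By this rule 14030 introns of 5379 genes were chosen from the 142206 introns of 15902 genes in the deposited lists, with 1 transcript per gene. Neither reads nor treatment entered the choice. The introns came from SUM159, an established human cell line of triple-negative breast cancer. Treatment was with H3B-8800, a spliceosome inhibitor that binds its SF3b part, or with the solvent DMSO alone, each for 12 hours and in 2 biological replicates. Polyadenylated RNA of the cytoplasm was sequenced from all 4 libraries, so nuclear RNA was not measured. For each intron the lists give the reads inside it, called intronic reads, and allow the reads that span it to be computed, called spliced reads. The comparison asks which of these introns remained in cytoplasmic RNA when the spliceosome was inhibited.

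An intron is removed in 2 steps by the spliceosome, which reads a donor site at the intron's start, a branch site near its end, the run of pyrimidines that follows it, and an acceptor site. SF3b holds the branch site against the U2 small nuclear RNA, and compounds of this class occupy the pocket in which the branch-site adenosine lies. In very short introns these elements lie close together and the whole intron can be recognised as 1 unit, across the intron rather than across the neighbouring exons. Such introns tend to be rich in G and C and lie in gene-dense regions.

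The median length was 98 bp, with quartiles of 86 and 118 bp and extremes of 12 and 150 bp. Only 7 introns were under 60 bp, and 2 of these had any spliced read. Internal introns numbered 12027, first introns 697 and last introns 1306. The annotation placed 13539 between coding exons, 118 in 5′ UTRs and 50 in 3′ UTRs, and 323 matched no GENCODE 29 transcript. Many lay side by side in the same transcript: 737 genes held at least 5. COL7A1, a collagen of the skin basement membrane, held 74 among its 117 introns, and LAMA5, a laminin chain, held 38 among 79. Within 10284 of the introns (73.3%) no annotated exon of any transcript lay, while 2093 were held whole in an exon of a transcript annotated as a retained intron.

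Sequence could be read for the 2608 introns that an annotated exon on the same strand contains whole. Of these, 98.8% began with GT and ended with AG, 27 had GC and AG ends, and 2 had AT and AC ends. The median GC content was 62.7%, against 53.8% in 5081 longer introns read the same way. The branch-site letters CTNAN occurred on the intron's own strand within the last 50 bases in 71.1% of the very short and 66.5% of the longer introns. Pyrimidines made up a median of 75% of the 20 bases before the last 3 in both. The following 8 introns are shown because the results below turn on them. They are written 5′ to 3′ on the gene's strand from GENCODE 29 transcripts on GRCh38, with the first 6 and the last 3 bases, the donor and acceptor ends, in capitals. The first 4 rose with H3B-8800.
SLC6A9 intron 8: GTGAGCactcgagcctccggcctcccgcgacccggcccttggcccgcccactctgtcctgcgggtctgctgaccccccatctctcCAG
ANKRD13D intron 12: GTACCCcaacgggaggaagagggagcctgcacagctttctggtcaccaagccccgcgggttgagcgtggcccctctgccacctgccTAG
POLR3GL intron 6: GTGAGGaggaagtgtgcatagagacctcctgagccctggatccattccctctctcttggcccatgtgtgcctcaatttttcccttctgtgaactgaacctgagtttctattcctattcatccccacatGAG
RPL9 intron 1: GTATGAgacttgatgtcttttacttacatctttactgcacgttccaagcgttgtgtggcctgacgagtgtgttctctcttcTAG
The other 4 did not pass the test, and the first of them is the shortest intron that could be tested.
HNRNPH1 intron 6: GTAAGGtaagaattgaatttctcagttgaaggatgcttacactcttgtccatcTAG
POLR2I intron 1: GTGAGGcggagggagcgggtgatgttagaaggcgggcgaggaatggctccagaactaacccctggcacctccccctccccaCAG
OCEL1 intron 2: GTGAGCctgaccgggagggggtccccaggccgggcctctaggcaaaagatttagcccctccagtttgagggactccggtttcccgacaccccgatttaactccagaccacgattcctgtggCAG
METRN intron 3: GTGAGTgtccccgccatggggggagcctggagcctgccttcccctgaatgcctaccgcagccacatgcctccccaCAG
SLC6A9 intron 8 lies at chr1:44000868-44000955, ANKRD13D intron 12 at chr11:67301399-67301487, POLR3GL intron 6 at chr1:145977852-145977982 and RPL9 intron 1 at chr4:39458310-39458393. HNRNPH1 intron 6 lies at chr5:179617933-179617988, POLR2I intron 1 at chr19:36114714-36114797, OCEL1 intron 2 at chr19:17226870-17226993 and METRN intron 3 at chr16:716993-717070. All 8 begin with GT, end with AG and separate coding exons. CTNAN was absent from the last 50 bases of ANKRD13D intron 12, which rose, and of OCEL1 intron 2, which did not pass. It was present in the other 6.

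Library totals ran from 58000000 to 64000000 reads. Spliced reads of VIM, a mesenchymal marker, numbered 58892 to 87321 per library. The other genes chosen as markers of this line had fewer: AXL 504 to 1528, FN1 1160 to 1352, CD44 134 to 262 and EGFR 23 to 73. The hormone receptor genes ESR1 and PGR had 0 spliced reads in all 4 libraries and the epithelial gene CDH1 at most 1. EPCAM, another epithelial gene, had 3 to 15. Counts are of reads and probably include each mate of a pair. Intervals cover counting error only and treat reads as independent, so they are too narrow if mates were both counted. Folds given as at least a value rest on a floor of 3 reads over the DMSO libraries and would then be lower.

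Very short introns held more reads after H3B-8800 in both treated libraries. Intronic reads inside them numbered 26148 and 29835 in the H3B-8800 libraries against 10115 and 10309 in the DMSO libraries, while their spliced reads numbered 1573796 and 1726981 against 2081802 and 2079657. Per 1000000 reads of the library this was 451 and 481 intronic reads against 158 and 161. Pooled over all very short introns, there were 1.69 ± 0.047 intronic reads per 100 spliced reads with H3B-8800 against 0.491 ± 0.0070 in DMSO libraries (SD, n = 2), a 3.45-fold difference. The 2 groups did not overlap, and the exact permutation test gave p = 0.33, the smallest that 2 libraries against 2 allow. The same p holds for every pooled comparison below.

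The reads were gathered in few introns. Of the 14030 introns, 9482 had no intronic read in any library. An intronic read was found in 19.4% and 20.9% of them with H3B-8800 and in 13.6% of them in either DMSO library. The 100 introns with the most intronic reads held between 47.5% and 50.5% of all such reads in each library. Intronic reads in both H3B-8800 libraries and in neither DMSO library were found at 508 introns (3.62%), and the reverse at 86 (0.613%). Among introns over 150 bp these shares were 4.4% and 0.948%.

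Host genes differ widely in level, so introns were grouped by the mean spliced reads at the other introns of the same gene. The level of intronic reads per 100 spliced reads was lower in stronger hosts, while the fold between the treatments was larger. In the weakest class, under 10 spliced reads, 6492 introns had 11.2 ± 0.41 in the H3B-8800 libraries against 4.28 ± 0.057 in the DMSO libraries (SD, n = 2), a 2.63-fold difference. At 10 to under 100, 4922 introns had 4.10 ± 0.20 against 1.37 ± 0.0041, or 2.98-fold. At 100 to under 500, 2117 introns had 2.56 ± 0.10 against 0.715 ± 0.023, or 3.58-fold. At 500 or more, 499 introns had 0.957 ± 0.0095 against 0.175 ± 0.00014, or 5.46-fold. The difference in fold between the strongest class and that at 10 to under 100 was 0.88 ± 0.058 on the log2 scale (SD over libraries). In introns without an annotated exon inside, levels were lower and folds larger: from 3.23-fold in the weakest class to 8.04-fold in the strongest, where 290 introns had 0.318 ± 0.014 against 0.0395 ± 0.0014.

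**Figure D1:**
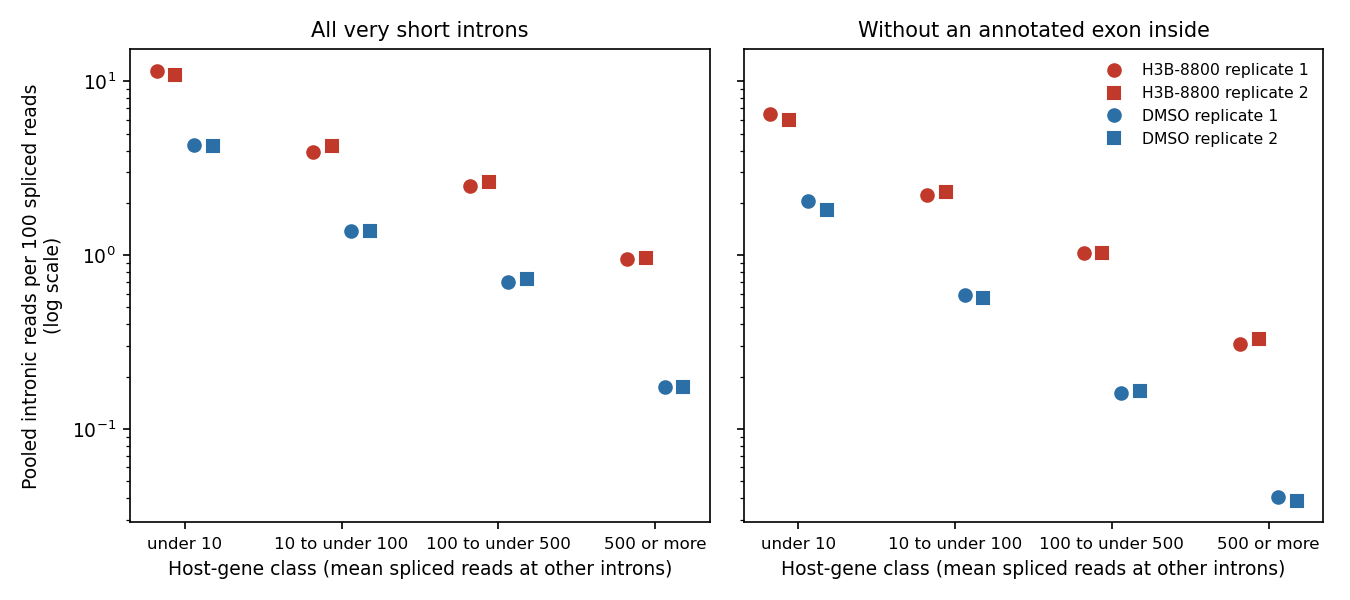
Pooled intronic reads per 100 spliced reads (log scale) of very short introns in each library, by class of host-gene spliced reads, for all of them (left) and for those without an annotated exon inside (right); each point is 1 library. The H3B-8800 points lie above the DMSO points in all 4 classes, 2.63-fold in the weakest and 5.46-fold in the strongest class on the left.

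Longer introns held more intronic reads per 100 spliced reads, so levels are also given per 100 bp of intron. This divides by intron length alone and takes no account of read length, whose effect on these levels was not tested. On this scale very short introns had 1.64 ± 0.046 intronic reads per 100 spliced reads and 100 bp in the H3B-8800 libraries, against 0.476 ± 0.0071 in the DMSO libraries. Introns over 150 and up to 1000 bp had 0.711 ± 0.016 against 0.262 ± 0.0051, and those over 10000 bp 0.204 ± 0.0024 against 0.157 ± 0.00031 (SD, n = 2 in each). Over all introns, with or without an annotated exon, the fold between treatments was largest in very short introns in each host class. In the strongest class it was 5.46-fold, against 3.25-fold up to 1000 bp, 2.55-fold up to 10000 bp and 1.44-fold over 10000 bp. In the weakest class the same 4 folds were 2.63, 2.19, 1.91 and 1.43. In introns without an annotated exon the order at 10 to under 100 spliced reads differed, with 3.91-fold in very short introns and 3.98-fold in those of up to 1000 bp.

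**Figure D2:**
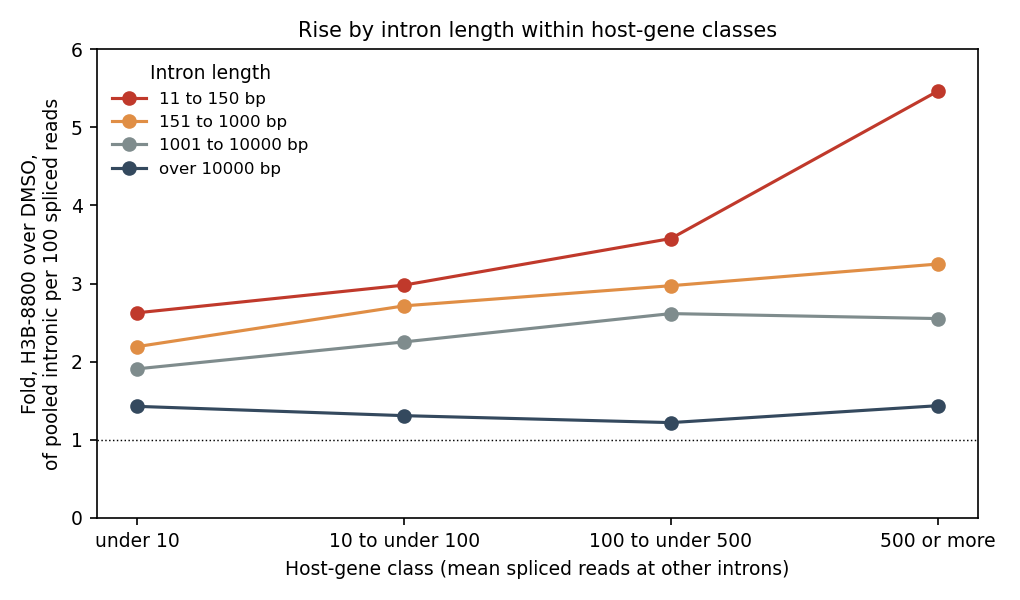
Fold of pooled intronic reads per 100 spliced reads, mean of the H3B-8800 libraries over mean of the DMSO libraries, for 4 classes of intron length (lines) within 4 classes of host-gene spliced reads (horizontal axis). Very short introns lie highest in each class, from 2.63 to 5.46, and introns over 10000 bp lie between 1.22 and 1.44.

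The comparison was repeated with very short and longer introns taken from the same genes. Reads were summed over these genes for each kind of intron, so no difference was taken gene by gene. In 5356 genes with both kinds, 13971 very short introns had 3.46-fold more intronic reads per 100 spliced reads with H3B-8800, and the 62490 longer introns of the same genes 2.10-fold more. The difference between these rises was 0.72 ± 0.031 on the log2 scale (SD over libraries), with no overlap between groups. It was 0.37, 0.45 and 0.44 in the 3 weaker host classes and 0.98 in the strongest. Against only the introns of up to 1000 bp among the longer ones it was 0.36.

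Position in the gene went with the level. Pooled first introns had 3.64 ± 0.032 intronic reads per 100 spliced reads in the H3B-8800 libraries against 1.20 ± 0.041 in the DMSO libraries, internal ones 1.22 ± 0.049 against 0.378 ± 0.0022, and last ones 2.61 ± 0.062 against 0.625 ± 0.011 (SD, n = 2). Last introns in the strongest host class differed 7.59-fold between treatments, internal ones 4.92-fold, and the difference of these rises was 0.62 ± 0.082 on the log2 scale. At 10 to under 100 spliced reads the order was the opposite, with a difference of -0.16 ± 0.098. By length, over all host classes, the fold was 2.80 at 60 to 79 bp and 3.72 at 80 to 99 bp, 3.53 at 100 to 119 bp and 3.56 at 120 to 150 bp. The order differed between host classes. At 10 to under 100 spliced reads these folds were 2.80, 3.29, 2.99 and 2.87. At 100 to under 500 they were 3.39, 3.77, 4.50 and 2.94, and at 500 or more 3.64, 6.74, 4.04 and 7.79.

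Single introns were tested where intronic and spliced reads each averaged at least 10 per library. The test asks, with edgeR, whether the ratio of intronic to spliced reads differed between treatments, and p-values were adjusted over all 9937 introns tested at any length. Only 296 very short introns of 252 genes were deep enough, 2.11% of them, against 7.45% of longer introns. Of these 296, 225 were higher with H3B-8800 and 1 was lower, where over all tested introns 56.5% were higher and 2.88% lower. The median difference was 2.55 on the log2 scale, against 1.62 over all tested introns. An intron with few reads in DMSO passes the depth filter only through its reads with H3B-8800. These counts therefore describe the tested introns and not very short introns at large. Of the tested, 8 had 0 intronic reads in DMSO and 17 had 1 to 3. Others with more DMSO reads also passed only in this way, such as ACTB intron 5 with 6 and 4 and TRAF4 intron 3 with 7 and 6. The same limit holds for the shares by host class, position, annotated exon and gene list below. A filter on spliced reads alone avoids this. Among 1835 very short introns with at least 100 spliced reads in each library, the ratio was higher in both H3B-8800 libraries than in both DMSO libraries at 537 (29.3%) and lower at 36 (1.96%). The same held for 38.8% and 4.64% of 13484 longer introns. At 764 of the 1835, no intronic read was found in either H3B-8800 library.

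Within host classes, 2 of 2 tested introns were higher under 10 spliced reads (29.9% of longer introns), and 44 of 73 at 10 to under 100 (51.8%). At 100 to under 500 it was 114 of 143 (61.9%), and at 500 or more 65 of 78 (67.0%). The longer introns nearest in length, over 150 and up to 1000 bp, had shares of 43.3%, 63.7%, 73.6% and 72.1% higher in the same 4 classes, against 60.3% of very short introns at 10 to under 100, 79.7% at 100 to under 500 and 83.3% at 500 or more. By position, 37 of 49 first introns were higher (39.3% of all first introns tested), 108 of 150 internal ones (57.8%) and 80 of 97 last ones (67.1%). Of the 69 tested without an annotated exon inside, 64 were higher (62.7% of all such introns tested). Of the 227 with one, 161 were higher (70.9%, where 56.5% of all tested introns were).

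The higher ratio came from intronic reads, spliced reads or both. Tested by themselves and scaled to library totals, intronic reads were higher at 196 and lower at 9 of 312 tested very short introns, where over all introns 48.2% were higher and 5.74% lower. With TMM scaling, which moved the median difference of these introns from 1.98 to 0.94, the counts were 120 and 35. Without H3B-8800 replicate 1 or 2 this edgeR test called none, with 135 or 129 higher and 7 or 12 lower at an unadjusted p under 0.05. Of the 225 introns with a higher ratio, 189 were also higher in intronic reads and 36 did not pass that test. Spliced reads were lower at 105 of the 225, higher at 45 and not called at 75. Over all very short introns tested for spliced reads 34.9% were lower and 14.3% higher, and over all introns 21.7% and 21.5%. The 225 were chosen by a ratio with these spliced reads as its denominator. That choice by itself favours introns with lower spliced reads, so the 105 are no separate result.

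**Figure D3:**
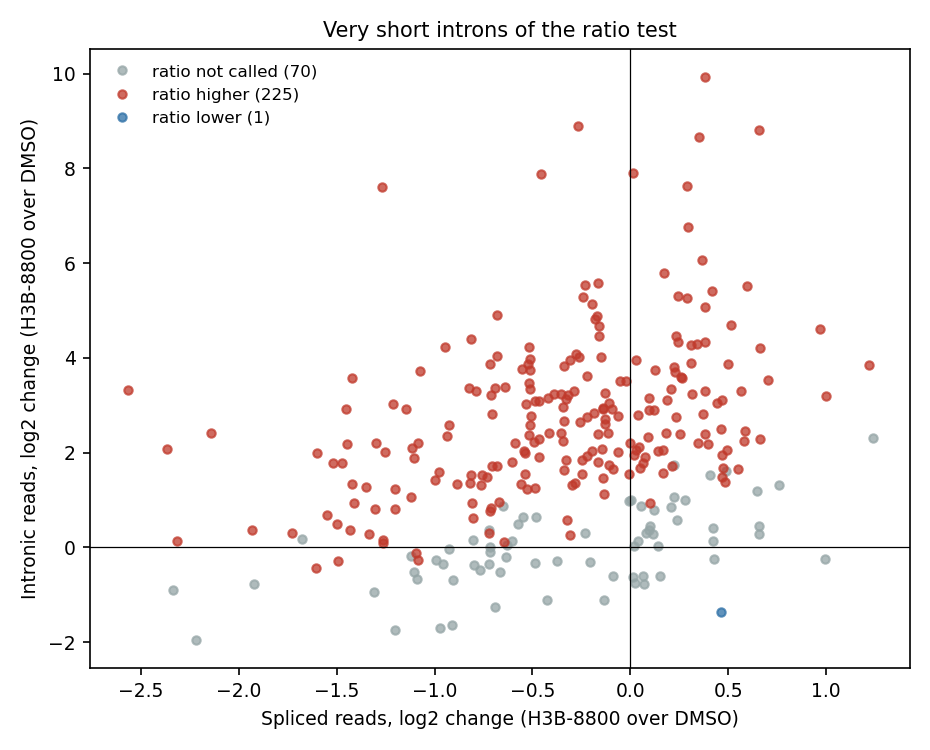
Log2 change of intronic reads (vertical) against log2 change of spliced reads (horizontal), H3B-8800 over DMSO, at the 296 very short introns of the ratio test; each point is 1 intron, coloured by the call of the ratio. The 225 introns with a higher ratio lie mostly above the zero line, on both sides of no change in spliced reads; introns without a DMSO read have fitted values that depend on the fit.

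Some introns rose from no read at all in DMSO, in genes with many spliced reads. CALR, which encodes the calcium-binding chaperone calreticulin of the endoplasmic reticulum, is the deepest case. Its last intron, intron 8 (chr19:12943630-12943712, 83 bp, no exon inside), had 129 and 105 intronic reads in the H3B-8800 libraries against 0 and 0 in the DMSO libraries. Its spliced reads numbered 9453 and 9964 against 9067 and 9652. Against the floor of 3 reads over the DMSO libraries, the ratio was at least 75.2-fold higher (adjusted p = 1.58e-06, edgeR). The 3 other very short introns of CALR, introns 4, 5 and 6, had 0 to 2 intronic reads in any library, at 1089 to 2902 spliced reads.

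PSMD3 and PSMD6 encode subunits of the proteasome's regulatory particle. PSMD3 intron 11 (chr17:39997381-39997503) had 49 and 67 intronic reads in the H3B-8800 libraries against 0 and 0 in the DMSO libraries, and its ratio was at least 58.3-fold higher (adjusted p = 1.27e-05, edgeR). PSMD6 intron 6 (chr3:64010765-64010877) had 55 and 54 intronic reads in the H3B-8800 libraries against 0 and 0 in the DMSO libraries, at least 28.9-fold higher (adjusted p = 3.78e-05, edgeR). Both are the last intron of their gene. Spliced reads at PSMD6 intron 6 were higher too, 199 and 201 against 179 and 139, so its ratio does not rest on a loss of spliced RNA.

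HNRNPL encodes an RNA-binding protein that regulates splicing. Its intron 4 (chr19:38843915-38844007, 93 bp) had 54 and 43 intronic reads in the H3B-8800 libraries against 0 and 0 in the DMSO libraries, at least 31.8-fold higher (adjusted p = 1.80e-05, edgeR). Its intron 6 (chr19:38840377-38840487, 111 bp, within an exon of a retained-intron transcript) had 1204 and 1437 intronic reads in the H3B-8800 libraries against 212 and 235 in the DMSO libraries, the most of all named introns in both H3B-8800 libraries. There the ratio was 699.7 ± 61.6 intronic reads per 100 spliced reads in the H3B-8800 libraries against 78.4 ± 3.76 in the DMSO libraries (SD, n = 2), a log2 difference of 3.15 ± 0.25 (SE) (adjusted p = 2.41e-06, edgeR). Introns 2 and 10 of the same gene, 117 and 114 bp long, had 0 to 2 intronic reads in any library.

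Other introns without a DMSO read were EMP1 intron 3, POLR3GL intron 6, MRPL51 intron 1 and CFL2 intron 1. EMP1 encodes an epithelial membrane protein; intron 3 (chr12:13213576-13213680) had 24 and 33 intronic reads in the H3B-8800 libraries against 0 and 0 in the DMSO libraries, at least 32.8-fold higher in ratio. POLR3GL encodes a subunit of RNA polymerase III; intron 6, shown above, had 23 and 24 intronic reads in the H3B-8800 libraries against 0 and 0 in the DMSO libraries, at least 47.4-fold higher, while its spliced reads were 159 and 163 against 474 and 500. MRPL51 encodes a mitochondrial ribosomal protein; intron 1 (chr12:6492973-6493057) had 29 and 29 intronic reads in the H3B-8800 libraries against 0 and 0 in the DMSO libraries, at least 24.03-fold higher. CFL2 encodes a cofilin, which severs actin filaments; intron 1 (chr14:34713137-34713253) had 15 and 33 intronic reads in the H3B-8800 libraries against 0 and 0 in the DMSO libraries, at least 16.4-fold higher. The adjusted p-values of these 4 were 4.83e-05, 1.73e-05, 4.04e-05 and 0.000356 in that order (edgeR).

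A second group had 1 or 2 reads over the DMSO libraries. GRAMD1A encodes a sterol carrier of membrane contact sites. Its intron 3 (chr19:35010196-35010283) had 31 and 48 intronic reads in the H3B-8800 libraries against 0 and 1 in the DMSO libraries, a ratio of the pooled levels of 76.8 (95% exact counting interval 13.4 to 3070). PTBP1, the polypyrimidine tract-binding splicing regulator, had 21 and 34 intronic reads in the H3B-8800 libraries against 1 and 0 in the DMSO libraries at intron 4 (chr19:804209-804291), a ratio of 80.9 (95% exact counting interval 13.9 to 3252). TGFB1 encodes the cytokine TGF-beta 1, and its intron 4 (chr19:41342031-41342169) had 28 and 35 intronic reads in the H3B-8800 libraries against 1 and 1 in the DMSO libraries, a ratio of 63.2 (95% exact counting interval 16.8 to 533.4). SLC6A9, a glycine transporter, had 21 and 20 intronic reads in the H3B-8800 libraries against 0 and 1 in the DMSO libraries at intron 8, a ratio of 59.2 (95% exact counting interval 10.1 to 2395), but only 7 to 15 spliced reads per library. In each of the 4 the groups did not overlap, and adjusted p-values were 5.89e-05, 6.37e-05, 1.45e-05 and 0.00155 (edgeR). That of SLC6A9 was 0.0613 without the depth filter. With a single DMSO read at GRAMD1A, PTBP1 and SLC6A9, leaving out the library that holds it leaves none. Without the other DMSO library their fitted log2 differences were 5.14, 5.11 and 4.49, against 5.926, 5.999 and 5.566 with all libraries.

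At FASTK intron 2, PCID2 intron 9 and ANKRD13D intron 12 intronic reads rose and spliced reads fell. FASTK, a kinase family member found in mitochondria, had 38 and 22 intronic reads in the H3B-8800 libraries against 10 and 5 in the DMSO libraries at intron 2 (chr7:151077781-151077878), with 25 and 18 spliced reads in the H3B-8800 libraries against 126 and 154 in the DMSO libraries. The ratio was 137.1 ± 21.1 intronic reads per 100 spliced reads in the H3B-8800 libraries against 5.59 ± 3.32 in the DMSO libraries (SD, n = 2). The log2 difference was 4.66 ± 0.57 (SE) (adjusted p = 4.90e-05, edgeR), or 5.37 and 4.10 without DMSO replicate 1 or 2. PCID2, a component of the mRNA export complex TREX-2, had 14 and 26 intronic reads in the H3B-8800 libraries against 2 and 2 in the DMSO libraries at intron 9 (chr13:113180043-113180157), with 18 and 10 spliced reads in the H3B-8800 libraries against 116 and 94 in the DMSO libraries. Its log2 difference was 6.12 ± 0.80 (SE) (adjusted p = 7.00e-05, edgeR), or 6.99 and 5.26 without H3B-8800 replicate 1 or 2. ANKRD13D, a ubiquitin-binding protein of endosomes, had 13 and 23 intronic reads in the H3B-8800 libraries against 6 and 1 in the DMSO libraries at intron 12, with 0 and 6 spliced reads in the H3B-8800 libraries against 20 and 14 in the DMSO libraries. One of its H3B-8800 libraries had no spliced read, and its adjusted p of 0.00263 (edgeR) was 0.0520 without the depth filter. Its log2 difference of 4.96 ± 1.12 (SE) was 6.28 and 4.36 without DMSO replicate 1 or 2, 4.23 without H3B-8800 replicate 1 and 9.12 without H3B-8800 replicate 2, which leaves no H3B-8800 spliced read. PKD1 intron 39 (chr16:2091907-2092046), in the polycystin 1 gene, had 43 and 29 intronic reads in the H3B-8800 libraries against 14 and 10 in the DMSO libraries while its spliced reads did not pass (log2 difference of the ratio 1.84 ± 0.56 (SE), adjusted p = 0.0136, edgeR). Its adjusted p was 0.114 without H3B-8800 replicate 1 and 0.338 without the depth filter. Reads of PKD1 can be shared with its near-identical pseudogene copies, so that value is uncertain.

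COPS6, a subunit of the COP9 signalosome, showed the same pattern within a gene as CALR. Its last intron, intron 9 (chr7:100091521-100091648, 128 bp), had 64 and 93 intronic reads in the H3B-8800 libraries against 0 and 4 in the DMSO libraries, a log2 difference of 5.77 ± 0.60 (SE) (adjusted p = 1.60e-05, edgeR). It was 4.76 without DMSO replicate 1, and without DMSO replicate 2 no DMSO read is left, with a fitted value of 9.84. Its 4 other very short introns, of 85 to 104 bp, had at most 3 intronic reads in any library, at 176 to 584 spliced reads. Over the 196 genes with a higher very short intron there were 388 other very short introns, 213 of them with at least 100 spliced reads in each library. Of these 213, 124 had at most 2 intronic reads in each H3B-8800 library and 71 had none. Having none was more common among all 1835 very short introns at that depth, at 764 of them. Where another intron of those genes could be tested, of any length, 209 of 299 were higher (56.5% of all tested introns). Another tested intron existed in 157 of the 196 genes, and 127 of these 157 held a higher one. The remaining 39 genes had no other tested intron.

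**Figure D4:**
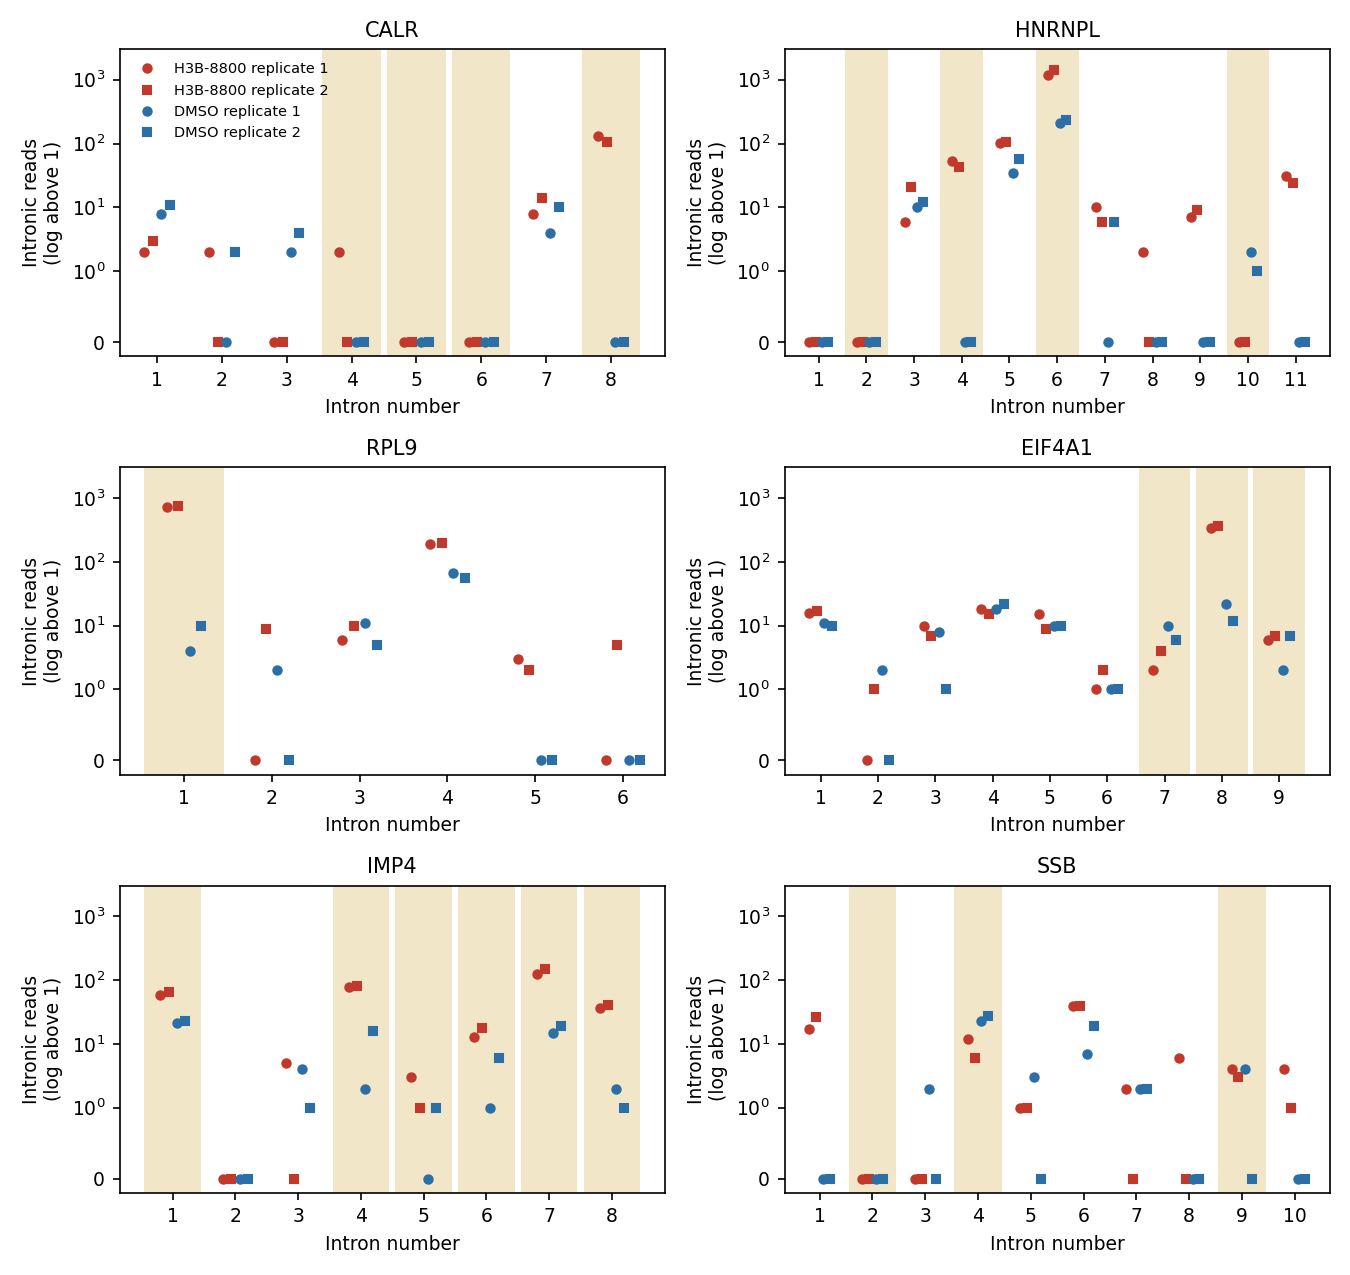
Intronic reads per library (log scale above 1, linear from 0 to 1) at each intron, in transcript order, of CALR, HNRNPL, RPL9, EIF4A1, IMP4 and SSB; shaded columns are very short introns. In CALR and EIF4A1, 1 very short intron stands far above the other very short introns of the same gene with H3B-8800, at 105 and 129 and at 344 and 366 reads, while in IMP4 introns 1, 4, 7 and 8 do, at 37 to 148 reads.

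Ribosomal protein genes, which encode the proteins of the cytoplasmic ribosome, held 40 very short introns, of which 14 were tested. Of these, 12 were higher, none was lower and 2 did not pass, where 76.0% of all tested very short introns and 56.5% of all tested introns were higher (median log2 difference 3.10, against 2.55 over all tested very short introns). RPL9 intron 1, shown above, had 712 and 741 intronic reads in the H3B-8800 libraries against 4 and 10 in the DMSO libraries, while 5348 and 6294 spliced reads in the H3B-8800 libraries against 5752 and 6137 in the DMSO libraries spanned it. Its ratio was 12.5 ± 1.09 intronic reads per 100 spliced reads in the H3B-8800 libraries against 0.116 ± 0.0660 in the DMSO libraries (SD, n = 2), a log2 difference of 6.71 ± 0.32 (SE) (adjusted p = 1.38e-07, edgeR), or 7.45 without DMSO replicate 2. RPS16 intron 3 (chr19:39433570-39433664) had 186 and 206 intronic reads in the H3B-8800 libraries against 13 and 15 in the DMSO libraries, a log2 difference of 3.81 ± 0.28 (SE) (adjusted p = 1.30e-06, edgeR). RPL30 intron 1 (chr8:98045400-98045507, in the 5′ UTR) had the most intronic reads of all that did not pass, 217 and 250 intronic reads in the H3B-8800 libraries against 372 and 399 in the DMSO libraries. Its ratio was 7.71 ± 0.411 intronic reads per 100 spliced reads in the H3B-8800 libraries against 10.2 ± 0.327 in the DMSO libraries (SD, n = 2) (log2 difference -0.41 ± 0.21 (SE), adjusted p = 0.110, edgeR). Both H3B-8800 libraries were below both DMSO libraries there.

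Translation factors deliver tRNAs and messages to the ribosome. They held 75 very short introns, and 8 of the 8 tested were higher, against 76.0% of all tested very short introns (median 3.67, against 2.55). EIF4A1, the helicase of the cap-binding complex, had 344 and 366 intronic reads in the H3B-8800 libraries against 22 and 12 in the DMSO libraries at intron 8 (chr17:7577707-7577826), a ratio of 10.6 ± 0.407 intronic reads per 100 spliced reads in the H3B-8800 libraries against 0.475 ± 0.197 in the DMSO libraries (SD, n = 2). The log2 difference was 4.47 ± 0.30 (SE) (adjusted p = 7.62e-07, edgeR), while its introns 7 and 9, of 81 and 97 bp, had 2 to 10 intronic reads in each library. EIF5A encodes a protein that helps ribosomes past difficult peptide bonds. At intron 3 (chr17:7311482-7311577) it had 154 and 169 intronic reads in the H3B-8800 libraries against 18 and 12 in the DMSO libraries. The log2 difference was 3.77 ± 0.29 (SE) (adjusted p = 1.97e-06, edgeR). This intron overlaps an annotated exon on the opposite strand, and whether the counting used strand is not given.

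Proteins of the mitochondrial ribosome held 32 very short introns, and 6 of 7 tested were higher, with a median of 2.57; this is near the 76.0% and the median of 2.55 over all tested very short introns. MRPL22 intron 1 (chr5:154941139-154941216, in the 5′ UTR) had 78 and 97 intronic reads in the H3B-8800 libraries against 8 and 1 in the DMSO libraries, against 148 to 171 spliced reads per library (log2 difference 4.33 ± 0.59 (SE), adjusted p = 9.54e-05, edgeR). The difference was 6.42 or 3.45 without DMSO replicate 1 or 2. SR and hnRNP genes, which encode splicing regulators, held 51, and 8 of 10 tested were higher, with a median of 2.99, also near that 76.0%. HNRNPUL2 intron 13 (chr11:62715380-62715499), the last of its gene, had 129 and 169 intronic reads in the H3B-8800 libraries against 4 and 4 in the DMSO libraries (log2 difference 5.20 ± 0.42 (SE), adjusted p = 2.41e-06, edgeR). The 2 that did not pass were both in HNRNPH1, introns 6 and 9. Intron 6 is 56 bp long and had 15 and 9 intronic reads in the H3B-8800 libraries against 14 and 7 in the DMSO libraries, so its groups overlapped (log2 difference 0.41 ± 0.52 (SE), adjusted p = 0.517, edgeR).

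In the proteasome list 3 of 4 tested introns were higher (76.0% of all tested very short introns), PSMB10 intron 5 being the one that did not pass, with 12 and 9 intronic reads in the H3B-8800 libraries against 38 and 33 in the DMSO libraries. Genes of the actin cytoskeleton held 109 very short introns, and 4 of 4 tested were higher, too few to set against that 76.0%. ACTB encodes beta-actin, and its last intron, intron 5 (chr7:5527892-5528003), had 168 and 211 intronic reads in the H3B-8800 libraries against 6 and 4 in the DMSO libraries, among 11971 to 13754 spliced reads (log2 difference 5.29 ± 0.31 (SE), adjusted p = 4.65e-07, edgeR). Introns 2 and 4 of ACTB, 134 and 95 bp long, had 0 to 6 intronic reads in each library. Glycolytic enzymes had 3 tested introns, all in GAPDH and all higher, against the same 76.0%. GAPDH introns 2, 4 and 6 had 28 and 44, 33 and 34, and 22 and 37 intronic reads in the H3B-8800 libraries, against 1 and 5, 8 and 11, and 3 and 6 in the DMSO libraries. Their log2 differences were 4.07 ± 0.49 (SE), 2.06 ± 0.31 (SE) and 3.07 ± 0.48 (SE), and that of intron 2 was 3.39 or 5.51 without DMSO replicate 1 or 2. GAPDH, ACTB and the ribosomal protein genes have processed pseudogenes without introns, so their spliced reads are less certain than their intronic reads.

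RNA polymerase II and Mediator genes had 3 of 4 tested introns higher, near the 76.0% of all tested very short introns. MED15, a Mediator subunit, had 20 and 19 intronic reads in the H3B-8800 libraries against 8 and 1 in the DMSO libraries at intron 10 (chr22:20585016-20585100; log2 difference 3.93 ± 0.81 (SE), adjusted p = 0.00152, edgeR). The difference was 5.91 or 3.06 without DMSO replicate 1 or 2. POLR2I, a subunit of RNA polymerase II, held introns that differed from each other. Its intron 3 (chr19:36114252-36114338) had 14 and 58 intronic reads in the H3B-8800 libraries against 2 and 5 in the DMSO libraries (log2 difference 4.18 ± 0.70 (SE), adjusted p = 0.000359, edgeR), and the H3B-8800 libraries differed widely. The difference was 4.85 or 3.06 without H3B-8800 replicate 1 or 2 and 5.05 without DMSO replicate 2. Its intron 1 had 104 and 124 intronic reads in the H3B-8800 libraries against 148 and 201 in the DMSO libraries, with 52.7 ± 6.70 intronic reads per 100 spliced reads in the H3B-8800 libraries against 40.8 ± 10.8 in the DMSO libraries (SD, n = 2) (log2 difference 0.39 ± 0.30 (SE), adjusted p = 0.290, edgeR). Both introns overlap an annotated exon on the opposite strand.

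The remaining lists had 2 tested introns or fewer, too few to set against the 76.0% of all tested very short introns that were higher. Both tested introns were higher for DNA replication, for mitosis and tubulins, for amino acid and stress response targets, and for lysosomal enzymes and V-ATPase. Of aminoacyl-tRNA synthetases 1 of 2 was higher, of the spliceosome 1 of 2, and of the respiratory chain 1 of 1. None of the 77 very short introns of chaperones of the HSP, DNAJ and CCT families, a list without CALR, the 465 of collagens, laminins and integrins, or the 54 of vesicle coats was deep enough to test. Pooled, those of collagens, laminins and integrins had 1.62 ± 0.31 intronic reads per 100 spliced reads in the H3B-8800 libraries against 0.980 ± 0.21 in the DMSO libraries (SD, n = 2), and those of the listed chaperones 0.0994 ± 0.0027 against 0.0523 ± 0.016. In actin cytoskeleton genes the pooled values were 0.455 ± 0.049 against 0.0472 ± 0.0070, and in ribosomal protein genes 1.26 ± 0.047 against 0.290 ± 0.00041.

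IFRD2 and IMP4 held the most very short introns with a higher ratio, 4 each. IMP4 encodes a protein of the machinery that processes ribosomal RNA. Its intron 7 (chr2:130346113-130346200) had 125 and 148 intronic reads in the H3B-8800 libraries against 15 and 19 in the DMSO libraries (log2 difference 3.81 ± 0.32 (SE), adjusted p = 3.38e-06, edgeR). Its introns 1, 4 and 8 had log2 differences of 2.35 ± 0.41 (SE), 3.81 ± 0.54 (SE) and 5.07 ± 0.57 (SE), and its introns 5 and 6, of 79 and 84 bp, had 1 to 18 intronic reads with H3B-8800. Without DMSO replicate 1 or 2, intron 4 was at 2.97 or 5.85, and without DMSO replicate 1 intron 8 was at 5.69. IFRD2 encodes a regulator of translation. Its last intron, intron 11 (chr3:50288272-50288408), had 195 and 252 intronic reads in the H3B-8800 libraries against 150 and 187 in the DMSO libraries, with 142 and 135 spliced reads in the H3B-8800 libraries against 466 and 518 in the DMSO libraries. The log2 difference of the ratio was 2.23 ± 0.29 (SE) (adjusted p = 6.54e-05, edgeR), and those of introns 2, 3 and 10 were 2.68 ± 0.52 (SE), 2.45 ± 0.48 (SE) and 3.04 ± 0.68 (SE). Intron 10 was at 5.91 without DMSO replicate 1 and 2.12 without DMSO replicate 2, and its adjusted p was 0.0511 without H3B-8800 replicate 2, and that of intron 3 was 0.0613 without the depth filter. Spliced reads of IFRD2, summed over the gene, fell by 1.30 on the log2 scale.

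The intron with a lower ratio was SSB intron 4 (chr2:169806893-169806970, 78 bp). SSB encodes the La protein, which binds the ends of newly made RNA polymerase III transcripts. It had 12 and 6 intronic reads in the H3B-8800 libraries against 23 and 27 in the DMSO libraries, at 992 and 1246 spliced reads against 1030 and 1002. The ratio was 0.846 ± 0.515 intronic reads per 100 spliced reads in the H3B-8800 libraries against 2.46 ± 0.326 in the DMSO libraries (SD, n = 2) (log2 difference -1.59 ± 0.47 (SE), adjusted p = 0.0114, edgeR). Without H3B-8800 replicate 2 it did not pass, with a log2 difference of -1.02, without H3B-8800 replicate 1 the difference was -2.33, and without the depth filter its adjusted p was 0.135. Introns 2 and 9 of SSB, also very short, had 0 to 4 intronic reads in each library.

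**Figure D5:**
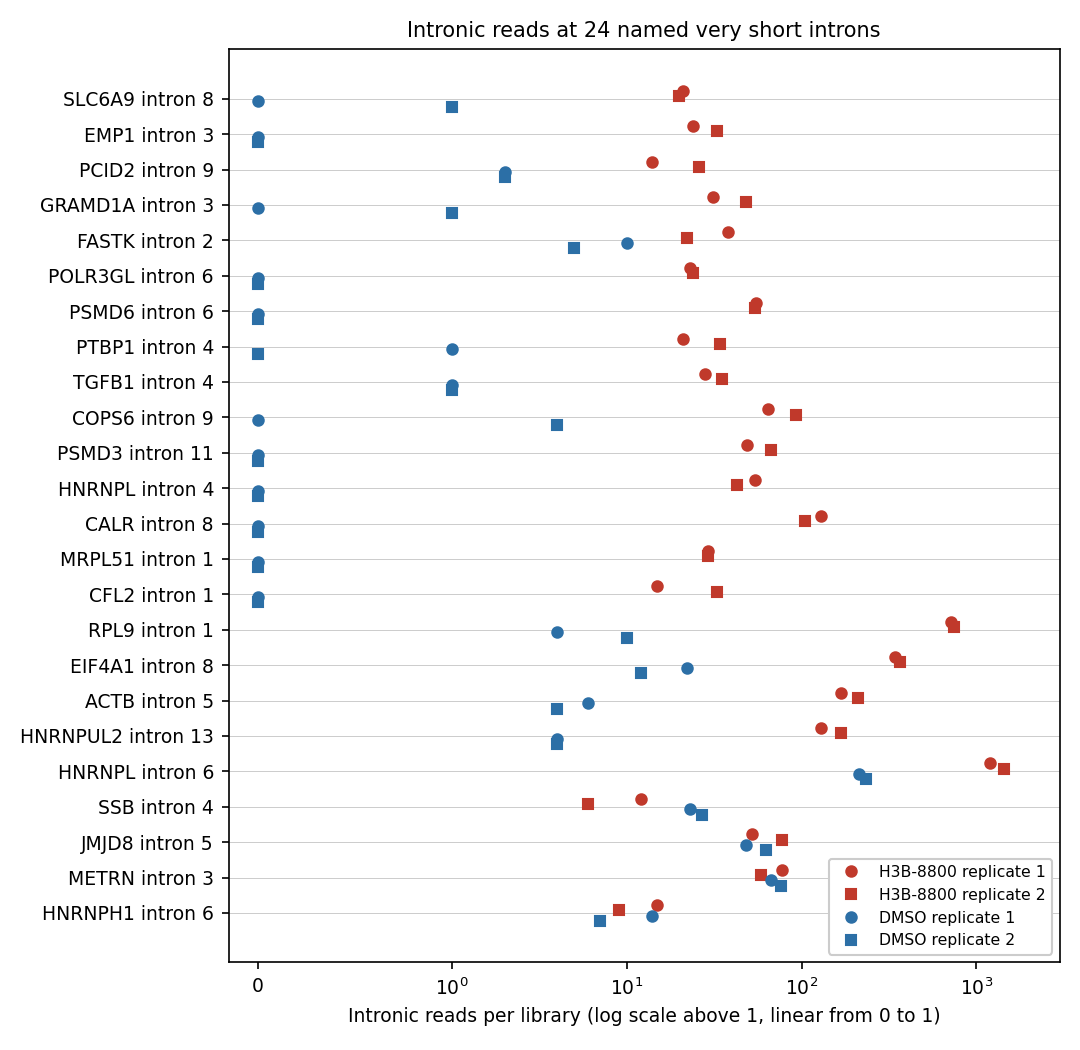
Intronic reads in each library (log scale above 1, linear from 0 to 1) at 24 named very short introns; each point is 1 library. The H3B-8800 points lie above the DMSO points in the first 20, while in SSB intron 4 they lie below, and in JMJD8 intron 5, METRN intron 3 and HNRNPH1 intron 6 they overlap.

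Introns that already held many reads per spliced read in DMSO answered unevenly. Among those with at least 100 spliced reads in each DMSO library, the 5 highest were in HNRNPL, JMJD8, HINT2, POLR2I and MKNK2. HNRNPL intron 6 rose, as given above. HINT2 intron 4 (chr9:35813146-35813265) had 49 and 35 intronic reads in the H3B-8800 libraries against 44 and 54 in the DMSO libraries, while 46 and 43 spliced reads in the H3B-8800 libraries against 126 and 113 in the DMSO libraries spanned it (log2 difference of the ratio 1.19 ± 0.43 (SE), adjusted p = 0.0302, edgeR). Its adjusted p was 0.116 without DMSO replicate 1, 0.194 and 0.0755 without H3B-8800 replicate 1 or 2, 0.117 by DESeq2, 0.0551 with the replicate block and 0.459 without the depth filter. MKNK2 encodes a kinase of the translation factor eIF4E, and its intron 3 (chr19:2046469-2046603) had 194 and 266 intronic reads in the H3B-8800 libraries against 244 and 345 in the DMSO libraries, with 274 and 306 spliced reads in the H3B-8800 libraries against 755 and 787 in the DMSO libraries (log2 difference 1.06 ± 0.27 (SE), adjusted p = 0.00553, edgeR). Its adjusted p was 0.0808 without H3B-8800 replicate 2, 0.0555 by DESeq2 and 0.213 without the depth filter. In these 2 introns the intronic reads overlapped between groups and the spliced reads did not. JMJD8 intron 5 (chr16:683442-683529) had 52 and 77 intronic reads in the H3B-8800 libraries against 48 and 63 in the DMSO libraries and did not pass (log2 difference 0.76 ± 0.40 (SE), adjusted p = 0.115, edgeR).

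Introns with many reads that did not pass also included METRN intron 3, DUSP23 intron 1 and OCEL1 intron 2. METRN encodes meteorin, a secreted factor of nerve cells, and intron 3 had 77 and 59 intronic reads in the H3B-8800 libraries against 67 and 76 in the DMSO libraries, which overlap. DUSP23 encodes a phosphatase, and its intron 1 (chr1:159780994-159781098, in the 5′ UTR) had 78 and 117 intronic reads in the H3B-8800 libraries against 170 and 187 in the DMSO libraries with 11 and 5 spliced reads in the H3B-8800 libraries against 40 and 37 in the DMSO libraries (log2 difference of the ratio 1.36 ± 0.55 (SE), adjusted p = 0.0502, edgeR). Without H3B-8800 replicate 1 it passed, at 2.31 (adjusted p = 0.0316, edgeR), and without H3B-8800 replicate 2 it was at 0.60. OCEL1 intron 2 had 43 and 61 intronic reads in the H3B-8800 libraries against 81 and 97 in the DMSO libraries with 4 to 19 spliced reads per library (log2 difference 0.47 ± 0.58 (SE), adjusted p = 0.501, edgeR). At both introns intronic and spliced reads were each lower in both H3B-8800 libraries than in both DMSO libraries.

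The shortest tested introns after HNRNPH1 intron 6 were both 69 bp long. TRAF4, an adaptor of receptor signalling, had 19 and 20 intronic reads in the H3B-8800 libraries against 7 and 6 in the DMSO libraries at intron 3 (chr17:28747948-28748016; log2 difference 1.98 ± 0.49 (SE), adjusted p = 0.00432, edgeR, or 0.156 without the depth filter). RHBDF1, an inactive rhomboid protease, had 11 and 22 intronic reads in the H3B-8800 libraries against 16 and 11 in the DMSO libraries at intron 2 (chr16:64830-64898) and did not pass (log2 difference 0.48 ± 0.66 (SE), adjusted p = 0.544, edgeR).

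The sequence features counted had close medians in the introns called higher and in the other tested introns with sequence, SSB intron 4 among them. Sequence was read only within annotated exons. The 69 tested introns without an annotated exon inside, 64 of them higher, are therefore absent from this comparison. Of the tested introns with sequence, the 143 that were higher had a median GC content of 63.4% and a median length of 95 bp, and the other 55 had 64.0% and 91 bp. CTNAN lay in the last 50 bases of 73.4% and 69.1%. Across the 198 introns, Spearman's rho of the log2 difference was -0.04 with GC content and 0.09 with length; these are descriptions across introns of the same libraries. GC content did go with the level in both treatments. Of 3 GC groups of the 2608 introns, the lowest (870 introns) had 1.58 ± 0.053 intronic reads per 100 spliced reads in the H3B-8800 libraries against 0.447 ± 0.0016 in the DMSO libraries, and the highest (843 introns) 6.08 ± 0.16 against 1.74 ± 0.072 (SD, n = 2). The fold between treatments was 3.52 and 3.49. Within host classes the folds of the lowest and highest GC group differed: 2.24 and 2.41 in the weakest, 3.48 and 2.74 at 10 to under 100, 3.30 and 4.03 at 100 to under 500, and 4.32 and 5.52 at 500 or more, where the middle group had 7.49. The 27 introns with GC and AG ends had 17.9 ± 3.4 against 7.79 ± 0.57.

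Over all host classes, spliced reads at very short introns were lower more often than higher. Of 6994 very short introns tested, 1001 were higher and 2443 lower with H3B-8800, where over all introns 21.5% were higher and 21.7% lower, and the median log2 difference was -0.29. In introns over 150 bp of the strongest host class 43.7% were higher and 22.7% lower, with a median of 0.133. Of the 499 very short introns there, 179 (35.9%) were higher and 162 (32.5%) lower, with a median of 0.014. Without H3B-8800 replicate 1 or 2 none passed by edgeR, with 847 or 839 higher and 2061 or 2157 lower at an unadjusted p under 0.05. Summed per gene, 1036 of 3687 host genes were higher and 1639 lower, against 32.8% and 32.7% of all genes. In genes without a very short intron, 1964 of 5264 were higher and 1351 lower. Over 2950 genes with both kinds, the median difference between the change at very short and at longer introns was 0.0022 on the log2 scale, with quartiles of -0.17 and 0.17, and the very short ones were lower in 49.4% of the genes. Fewer molecules of a gene per cell and fewer cells that hold them cannot be told apart in these bulk libraries.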

How the data were processed

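Cytoplasmic polyadenylated RNA of SUM159 cells was measured in 2 H3B-8800 and 2 DMSO libraries, made strand-specific per the labels' protocols. The submitters' processing notes name HISAT2 2.0.4, hg38 and mm10. The counting tool and its use of strand are not given in the sources used here. The authors deposited, per intron and without a header, 2 read counts and an RPKM value. The deposited RPKM was used only to recover library totals. The second count minus the first was taken as spliced reads, a reading inferred from the values; a read spanning several introns counts at each. Of the non-zero intronic counts 70.9% to 72.3% per library were even, so mates were probably both counted. For 18 introns of 142224 no second count was given. Overlapping and antisense genes are uncertain.

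Coordinates are hg38, 1-based; 99.9% of the introns match GENCODE 29, which also gave positions, exons and sequences. Symbols matched for 98.4% of genes. The ratio test (edgeR 4.0.16, R 4.3.3, quasi-likelihood) fitted the interaction of kind of read with treatment, with a term per library; intronic reads were scaled to library totals, spliced reads by TMM. Filters were a mean of 10 reads, or 1 CPM per gene; Benjamini-Hochberg adjustment ran over all features, threshold 0.05; SEs were approximated from the F statistic. Folds against 0 DMSO reads used a floor of 3 reads over the group.

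On simulated counts the ratio test recovered 0%, 19.4% and 93.9% of 1.5-, 2- and 4-fold changes over 9937 introns. Simulated 2-fold changes were thus mostly missed. The simulation changed only 66 or 67 introns per fold, while 5613 were called higher in the data. The adjustment is less strict where more introns differ, so recovery in the data may be higher. For intronic reads the shares were 1.49%, 4.48% and 93.9% (12013 introns), and for spliced reads 16.4%, 61.2% and 100% (66136 introns).

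Introns were named by a rule: per host class, among introns that passed without overlap between groups and with a mean of 10 intronic reads in the higher group, the 5 largest rises and the 2 largest falls; the 5 with the most reads that did not pass; the 5 with the highest ratio in DMSO; the 3 shortest tested; the 3 hosts with the most higher introns; and 2 per list of at least 3 tested introns. PSMB10 intron 5 and HNRNPH1 intron 9, and the introns set beside named ones in the same gene, were added once values were known. The members, the 18 lists and the tests were chosen with earlier results of these data known. Alternatives were DESeq2 1.42.0, other scaling, no filter, leaving out each library, a replicate block, introns without an annotated exon and a lower length limit. Genes with 1 listed intron were left out by the rule.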

Additional observations from a re-analysis of the deposited data

How the results depend on the processing

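Depth limits the single-intron results: 2.11% of very short introns could be tested for the ratio, and simulated 2-fold changes were mostly missed. Of the 225 introns with a higher ratio, DESeq2 called 205 and kept 205, and without the depth filter 305 of 4457 were called, 157 of the 225 among them. Only introns without an annotated exon gave 64 higher and 0 lower of 69, and those up to 100 bp 125 of 166. Leaving out each library gave 177 to 210 higher and 0 to 1 lower, the 0 being without H3B-8800 replicate 2. For intronic reads, TMM scaling gave 120 higher and 35 lower (median 0.94, against 1.98 with library totals) and DESeq2 2 lower; leaving out a library gave 0 to 192 higher and 0 to 10 lower. The 0 came without either H3B-8800 library, where the lone treated library is assumed to vary like the others; by edgeR 135 higher and 7 lower, or 129 and 12, then had an unadjusted p under 0.05, and DESeq2 with all libraries called 155 higher. For spliced reads, DESeq2 gave 587 higher and 1507 lower and library totals 545 higher and 3231 lower (median -0.52, against -0.29). Leaving out a library gave 0 to 832 higher and 0 to 2043 lower; without H3B-8800 replicate 1, 847 and 2061 had an unadjusted p under 0.05 by edgeR, and without replicate 2, 839 and 2157. Host gene counts stayed within 1.5 times of 1036 and 1639 under every alternative run. The pooled log2 difference was 1.79 (1.76 to 1.82 leaving out a library), 2.16 without annotated exons and 1.69 without the 10 introns with the most reads. By host class from weakest to strongest it was 1.69, 1.97, 2.66 and 3.01 without annotated exons, against 1.39, 1.58, 1.84 and 2.45. Without the 10 introns it was 1.69, 2.10 and 2.32 in the 3 stronger classes. The difference of rises in the same genes was 0.72 (0.70 to 0.74 leaving out a library). It was 0.79 without annotated exons, 0.36 against longer introns of up to 1000 bp and 0.61 for internal introns. Among named introns that passed, leaving out a library gave COPS6 intron 9 4.76 to 9.84, IFRD2 intron 10 2.12 to 5.91, IMP4 intron 4 2.97 to 5.85, ANKRD13D intron 12 4.23 to 9.12 and PCID2 intron 9 5.26 to 6.99. Among those that did not pass, it gave DUSP23 intron 1 0.60 to 2.31, which passed without H3B-8800 replicate 1, METRN intron 3 -0.21 to 0.41 and HNRNPH1 intron 6 -0.091 to 0.99, below 0 without H3B-8800 replicate 1 for both and without DMSO replicate 2 (-0.025) for HNRNPH1; neither METRN nor HNRNPH1 then passed. The cause of these shifts was not tested. The median over introns gave no value because it was 0. The replicate numbers share no stated origin, and same-numbered libraries barely deviated together (correlations 0.019, 0.055 and 0.0076); with the replicate block the ratio test called 218 higher and 1 lower, intronic reads 175 and 5, spliced reads 1058 and 2529, and host genes 1048 and 1660.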

Other observations

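Genes with a single listed intron were outside the rule for very short introns, and their introns of 11 to 150 bp gave a separate set of values. There were 81 such introns. Pooled, they had 4.22 ± 0.14 intronic reads per 100 spliced reads in the H3B-8800 libraries against 1.44 ± 0.15 in the DMSO libraries (SD, n = 2), a 2.94-fold difference. In the ratio test 11 of them were deep enough. TRMT112, an activator subunit of several methyltransferases, had 107 and 145 intronic reads in the H3B-8800 libraries against 18 and 29 in the DMSO libraries, a log2 difference of 2.94 ± 0.34 (SE; adjusted p = 2.91e-05, edgeR). PGP, a phosphatase that clears phosphoglycolate, had 54 and 67 against 15 and 16, while its spliced reads were 87 and 85 against 288 and 287 (log2 difference of the ratio 3.69 ± 0.40, adjusted p = 1.86e-05, edgeR). SCAND1 had 398 and 474 against 294 and 222 with only 14 to 43 spliced reads per library. FKBP1A, which encodes the binding protein of the drug FK506, did not pass, with 12 and 15 intronic reads against 14 and 19. TRMT112, PGP, SCAND1 and FKBP1A were chosen after their values were seen.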
